A study of Mus musculus with 35 samples.

Results

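Transcripts of the mitochondrial respiratory chain were examined in microglia sorted from the midbrain, striatum and prefrontal cortex (PFC) of adult mice. The set held 44 genes, chosen by symbol, and all 44 were found among the 21236 genes of the counts table. Mitochondrial DNA (mtDNA) encodes 9 of them, with symbols that start with mt-, and the nucleus encodes the other 35. The contrast asked of the data was whether these sources of one set of protein complexes moved together between brain regions and between the sexes.

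RNA had been sequenced from 12 mice, 6 male and 6 female, which gave 12 midbrain, 12 striatum and 11 PFC samples, with 6 samples for each region and sex except 5 for male PFC. Every mouse carried the same alleles, a CreERT2 placed behind Tmem119, a gene of microglia, and the Ai14 reporter, whose red protein tdTomato is made only after Cre has acted (Tmem119-2A-CreERT2/Ai14(RCL-tdTomato)-D). All animals were 17 to 18 weeks old and had received tamoxifen, 75 mg/kg on each of 5 days, and tdTomato-positive cells were collected 10 to 21 days after the last dose, so there was no group without Cre, reporter or tamoxifen. Region and sex are therefore the comparisons that the design allows, and the mouse number pairs the regions.

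The respiratory chain sits in the inner mitochondrial membrane and passes electrons from NADH and succinate to oxygen, while complexes I, III and IV pump protons whose return drives ATP synthase, also called complex V. Complex I, III, IV and V are built from subunits of both genomes, whereas complex II is encoded by the nucleus alone. The mtDNA genes are copied as long transcripts that are cut into separate RNAs inside the organelle, and nuclear subunits are made in the cytosol and imported. Microglia, the resident macrophages of the brain, use this pathway beside glycolysis, and the balance between them is known to shift when macrophages are activated.

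Total counts ran from 37680501 to 54131421 per sample, and 3 counts, taken as the floor of detection, corresponded to 0.0561 to 0.0789 CPM (counts scaled to a common library size) where the lowest value of any member in any sample was 1.49 CPM, of mt-Co2. Summed CPM of 14 transcripts of homeostatic microglia was 50773 to 64341 in all samples. The libraries are PCR products without molecular identifiers, so the floor covers counting error only. In bulk samples such as these, fewer cells of a type and less RNA per cell cannot be told apart. One striatum sample, from mouse 3, carries a column name that points to another region than its label, and the label was followed. It had the highest ratio of mtDNA-encoded to nuclear members of all 35 samples. Without it the calls below were 5 members for PFC over midbrain, 4 for striatum over midbrain, with estimates of 0.42 for mt-Nd4, 0.50 for mt-Nd5, 0.34 for mt-Cytb and -0.31 for Cycs (edgeR adjusted p = 0.0186, 3.6e-04, 0.0239 and 0.0243), and 1 for striatum over PFC, the same numbers as with it.

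Some mtDNA-encoded members have near-complete copies in the nuclear genome, and this bears on what their counts mean. The share of a member's 50-base windows, the length of 1 read end, that recurs in the annotated transcript of another gene was 100% for mt-Co2, 99.9% for mt-Co3 and 99.5% for mt-Atp6, against 62.2% for mt-Nd4, 51.1% for mt-Co1, 8.19% for mt-Nd2, 7.61% for mt-Nd5 and 0% for mt-Nd1 and mt-Cytb (GENCODE M21, GRCm38). The copies lie side by side on the minus strand of chromosome 1, as Gm29216 (a copy of the end of mt-Co1), Gm28661 (mt-Co2), Gm10925 (mt-Atp6), Gm28437 (mt-Co3), Gm28438 (mt-Nd3) and Gm28439 (the first 876 bases of mt-Nd4). A stretch of 60 bases of each of 2 members is printed with its copy to show that a read from it could not be assigned: the lines of a pair are identical, so no base stands in capitals.
mt-Co2, chrM:7323-7382, plus strand: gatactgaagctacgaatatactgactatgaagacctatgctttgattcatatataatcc
Gm28661, chr1:24615196-24615255, minus strand: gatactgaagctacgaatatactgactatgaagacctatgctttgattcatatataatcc
mt-Nd4, chrM:10575-10634, plus strand: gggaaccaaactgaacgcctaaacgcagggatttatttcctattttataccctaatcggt
Gm28439, chr1:24611943-24612002, minus strand: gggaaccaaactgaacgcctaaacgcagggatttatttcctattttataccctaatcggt
Over their aligned lengths, mt-Co2 and Gm28661 matched at 681 of 681 bases and mt-Nd4 and Gm28439 at 876 of 876. Only annotated transcripts were searched, so copies elsewhere in the genome would be missed. How reads that fit several places were counted is not given in the sources used here. The 3 members with windows shared throughout had the lowest levels of the mtDNA-encoded set, means of 4.60 CPM for mt-Co2, 14.4 CPM for mt-Co3 and 9.63 CPM for mt-Atp6, while the other 6 had means of 430 to 2263 CPM. Levels of mt-Co2, mt-Co3 and mt-Atp6 are therefore uncertain. Without them the summed CPM of the mtDNA-encoded members was 5942 ± 1251 (SD, n = 12) for midbrain, 7287 ± 1245 (n = 12) for striatum and 7892 ± 1455 (n = 11) for PFC samples.

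**Figure D1:**
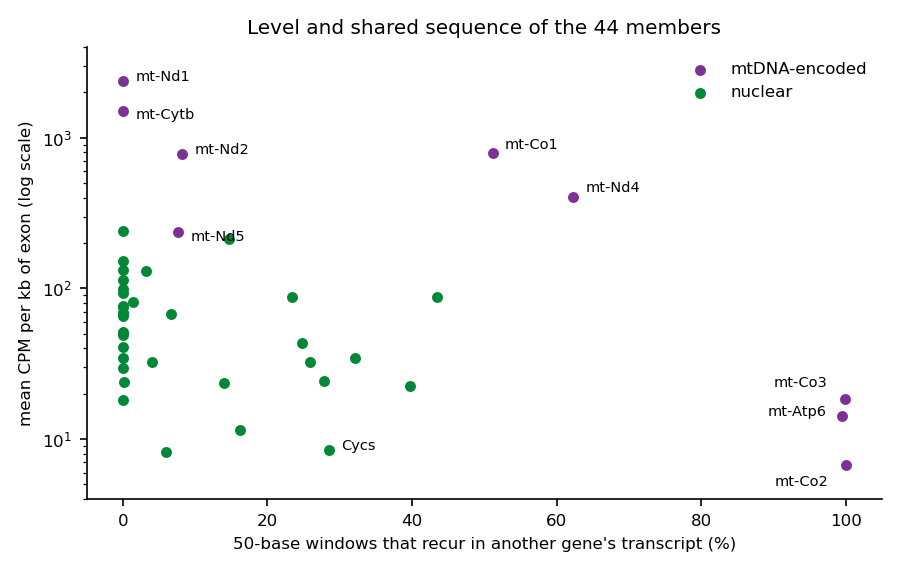
Share of each member's 50-base windows that recurs in the transcript of another gene, in percent (x axis), against its mean CPM per kb of exon over all 35 samples (y axis, log scale), for the 9 mtDNA-encoded (purple) and 35 nuclear (green) members. mt-Co2, mt-Co3 and mt-Atp6 sit at 99.5% to 100% shared windows and 6.72 to 18.3 CPM per kb, below the other mtDNA-encoded members, which lie between 236 and 2364.

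Per length of exon, mt-Nd1, a core subunit of complex I, was the highest member at 2364 CPM per kb and mt-Cytb, the cytochrome b of complex III, followed at 1513 CPM per kb. Of the complex I subunits of mtDNA the lowest was mt-Nd5 at 236 CPM per kb. In complex IV, cytochrome c oxidase, mt-Co1 had 792 and mt-Co2 6.72 CPM per kb, and mt-Atp6, the single member of ATP synthase, had 14.1. Nuclear members had a median of 51.2 CPM per kb. Among the 17 nuclear subunits of complex I the highest was Ndufa1 (153 CPM per kb) and the lowest was Ndufs1, the large iron-sulfur subunit (8.21). For complex II, succinate dehydrogenase, the order ran from Sdhc, a membrane anchor (23.8 CPM per kb), to Sdhd, the other anchor (132). In complex III it ran from Uqcrq (40.8 CPM per kb) to Uqcrc1, a core protein (98.8), and among the nuclear members of complex IV, with Ndufa4 counted there, from Cox6c (23.6) to Cox8a (241). Cycs, cytochrome c, which carries electrons from complex III to complex IV, had 8.47 CPM per kb. These values rest on annotated exon length.

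Summed over the 9 mtDNA-encoded members, midbrain samples had 5964 ± 1258 CPM (SD, n = 12), striatum samples 7322 ± 1243 (n = 12) and PFC samples 7921 ± 1462 (n = 11). The lowest, median and highest samples were 4599.5, 5449.9 and 8417 CPM in the midbrain, 5625 (lowest), 7048 (median) and 10188 CPM (highest) in the striatum and 5153 (lowest), 7773 (median) and 10027 CPM (highest) in the PFC. The ranges overlapped, but within mice the PFC sum exceeded the midbrain sum in 10 of 11 mice and the striatum sum exceeded it in 11 of 12. For the 35 nuclear members the sums were 3826 ± 482 CPM (SD, n = 12) for midbrain, 3720.4 ± 324 (n = 12) for striatum and 3955 ± 490 (n = 11) for PFC samples, and here the PFC was higher in 9 of 11 mice and the striatum in 5 of 12. The log2 ratio of the mtDNA-encoded to the nuclear sum was 0.62 ± 0.16 (SD) in the midbrain, 0.96 ± 0.19 in the striatum and 0.99 ± 0.19 in the PFC. It ranged from 0.42 to 1.002 in the midbrain, from 0.65 to 1.46 in the striatum and from 0.70 to 1.30 in the PFC, and the midbrain had the smaller value in 11 of 11 mice against the PFC and in 11 of 12 against the striatum. The differences of the means were 0.36 for PFC minus midbrain, 0.34 for striatum minus midbrain and -0.02 for striatum minus PFC, beside a pooled SD within region and sex of 0.18. Without the striatum sample of mouse 3 the striatum minus midbrain difference was 0.30. These ratios are descriptions of a chosen set and carry no test.

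**Figure D2:**
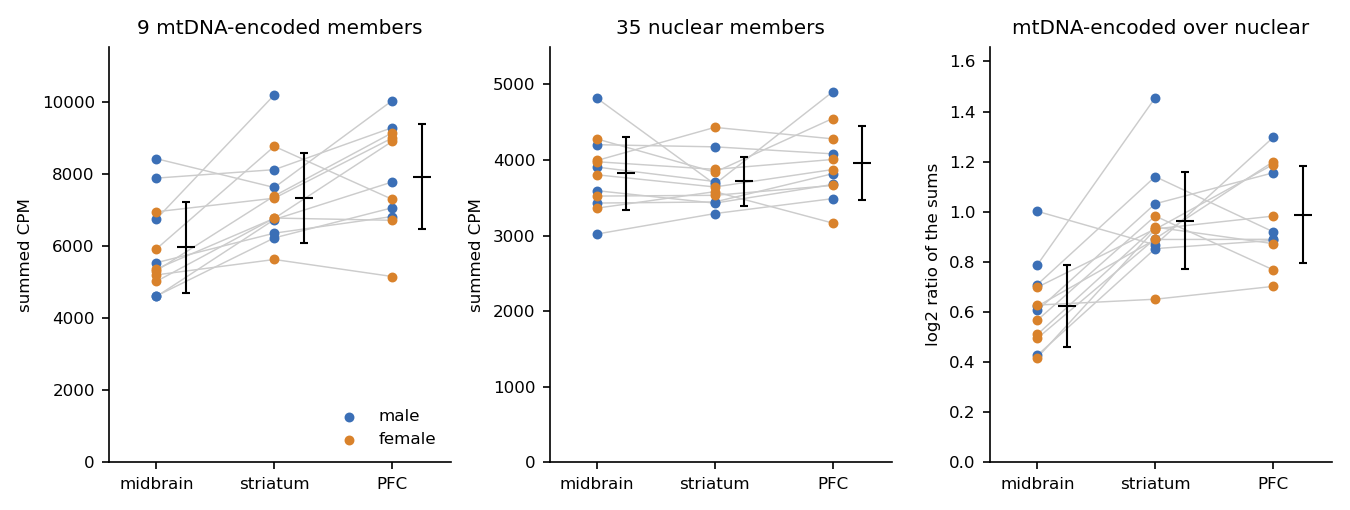
Summed CPM of the 9 mtDNA-encoded members (left) and the 35 nuclear members (middle) and the log2 ratio of these sums (right) in each sample by region, with males in blue and females in orange. Grey lines join samples of a mouse, and black bars give mean and SD over 12, 12 and 11 samples. The midbrain means of the mtDNA-encoded sum and of the ratio (5964 CPM and 0.62) lie below those of striatum and PFC, while the nuclear sums lie at 3826, 3720.4 and 3955 CPM.

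Of the 44 members, 7 differed by region in edgeR's quasi-likelihood test (Benjamini-Hochberg adjusted p under 0.05 over all 21236 genes), in a table in which 8.89% of all genes did. They were mt-Nd5, mt-Cytb, mt-Nd4, Uqcrc1, Ndufv1, mt-Nd1 and Cycs, so 4 of 9 mtDNA-encoded and 3 of 35 nuclear members, the latter a share near that of all genes. With a block for the mouse 9 members were called for region, with mt-Nd2 (adjusted p = 0.00289) and mt-Co1 (adjusted p = 9.6e-04) added. Calls over all genes rose with the block as well, from 1888 to 2977. Without the block, leaving out mouse 2 or mouse 10 gave 3 called members, and leaving out mouse 5, 7, 11 or 12 gave 4. Between PFC and midbrain 5 of 44 members were called, all of them mtDNA-encoded (mt-Nd1, mt-Nd2, mt-Nd4, mt-Nd5 and mt-Cytb) and all higher in the PFC, and none of the 35 nuclear members was, with 2 of them at an unadjusted p under 0.05. Over all genes 6.52% were called in that comparison, 2.88% higher and 3.64% lower in the PFC. Between striatum and midbrain mt-Nd4, mt-Nd5 and mt-Cytb were higher in the striatum and Cycs was lower, 4 of 44 members, beside 7.45% of all genes, 4.18% higher and 3.27% lower. The median log2 fold change of PFC over midbrain was 0.44 for the mtDNA-encoded members, 0.03 for the nuclear members and 0.01 for all genes, and that of striatum over midbrain was 0.47, -0.05 and 0.01. All 9 mtDNA-encoded members had a positive estimate in both comparisons under each of the 4 scalings of the libraries, but for striatum over midbrain 7 of 9 did without mouse 7 and 7 of 9 in mice 1 to 6 alone. The mtDNA-encoded median of that comparison was 0.31 without mouse 7 and 0.21 in mice 1 to 6 alone, and the nuclear median was 0.03 in mice 7 to 12 alone. Without mt-Co2, mt-Co3 and mt-Atp6 the calls were the same 5 and 3 of 6 mtDNA-encoded members, since none of these 3 was called. The striatum over midbrain median leans on these 3, whose estimates there were 0.56 to 0.85 and whose levels are uncertain. Estimates of the other 6 lay from 0.14 to 0.54 for striatum over midbrain and from 0.31 to 0.46 for PFC over midbrain. These comparisons share the midbrain samples, so they are not independent of each other.

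**Figure D3:**
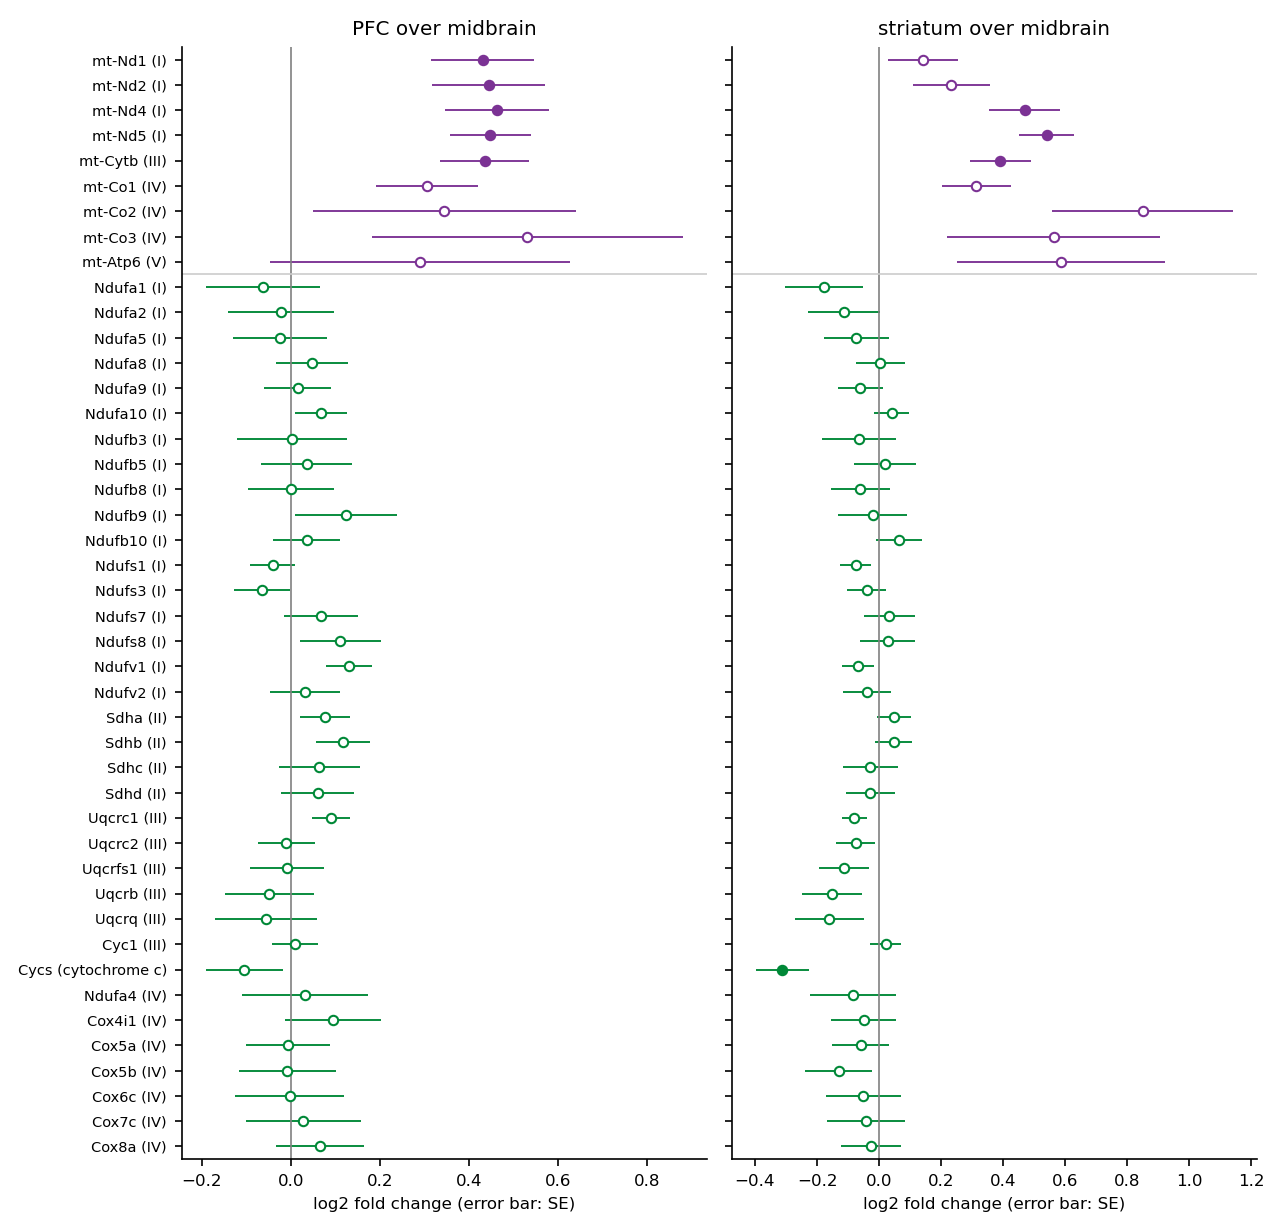
Log2 fold change of PFC over midbrain (left) and striatum over midbrain (right) for each member, with its SE as error bar and its complex in brackets, mtDNA-encoded in purple above the line and nuclear in green below it. Filled points have an adjusted p under 0.05. The mtDNA-encoded members lie between 0.29 and 0.53 on the left and between 0.14 and 0.85 on the right, and the nuclear members between -0.10 and 0.13 and between -0.31 and 0.06.

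Complex I takes electrons from NADH, and 4 of its mtDNA-encoded core subunits were members. mt-Nd5 (chrM:11742-13565, plus strand), part of the proton-pumping arm, had 278 (lowest), 336 (median) and 483 CPM (highest) in the midbrain, 428 (lowest), 481 (median) and 645 CPM (highest) in the striatum and 312 (lowest), 467 (median) and 601 CPM (highest) in the PFC. Only the midbrain of mouse 1, with the highest midbrain value, reached into the striatum's range, and several PFC samples lay within the range of the midbrain. The log2 fold change was 0.54 ± 0.09 (SE) for striatum over midbrain (edgeR adjusted p = 1.0e-04) and 0.45 ± 0.09 for PFC over midbrain (edgeR adjusted p = 9.6e-04), with higher values in 11 of 12 and 9 of 11 mice. It kept both calls with any 1 mouse left out, and in mice 1 to 6 alone neither was called (adjusted p = 0.0532 and 0.244).

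mt-Nd4 (chrM:10167-11544, plus strand) had 290.4 to 648 CPM in the midbrain (median 427), 469 to 889 in the striatum (median 606) and 411 to 817 in the PFC (median 569.6). The highest midbrain values overlapped both other regions, and within mice it was higher than in the midbrain in 11 of 12 striatum and 11 of 11 PFC samples. Its log2 fold change was 0.47 ± 0.11 (SE) in the striatum (edgeR adjusted p = 0.00757) and 0.46 ± 0.12 in the PFC (edgeR adjusted p = 0.00930). Without mouse 12 the PFC call was lost, at 0.38 (adjusted p = 0.0604). In mice 1 to 6 alone mt-Nd4 was called in neither comparison. Of its 50-base windows 62.2% recur in the transcript of another gene.

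The other complex I members of mtDNA set the PFC apart more than the striatum. mt-Nd1 (chrM:2751-3707, plus strand) had 1469 to 2766 CPM in the midbrain (median 1805), 1707 to 2991 in the striatum (median 2026) and 1658 to 3550.1 in the PFC (median 2545), and its ranges overlapped throughout. PFC samples were higher than midbrain samples of the same mouse in 10 of 11 mice, with a log2 fold change of 0.43 ± 0.12 (SE; edgeR adjusted p = 0.0159), and without mouse 4 this was 0.38 (adjusted p = 0.0618). In the striatum the estimate was 0.14 ± 0.11 (edgeR adjusted p = 0.540). mt-Nd2 (chrM:3914-4951, plus strand) had 483 to 1030.5 CPM in the midbrain (median 648), 594 to 1149 in the striatum (median 789.8) and 587 to 1255 in the PFC (median 978). It was called for PFC over midbrain only, at 0.44 ± 0.13 (edgeR adjusted p = 0.0254), and lost the call without mouse 2, 4, 7 or 12 (adjusted p = 0.0524, 0.0895, 0.0762 and 0.0892). In mice 1 to 6 alone mt-Nd2 was not called either. Its striatum over midbrain estimate was 0.23 ± 0.12 (edgeR adjusted p = 0.298), and the striatum over PFC estimates of mt-Nd1 and mt-Nd2, -0.29 ± 0.12 and -0.21 ± 0.13 (SE), were not called.

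mt-Cytb (chrM:14145-15288, plus strand), the mtDNA-encoded subunit of complex III, had 1099.6 to 1989.5 CPM in the midbrain (median 1349), 1402 to 2629 in the striatum (median 1856) and 1234 to 2369 in the PFC (median 1833). It was higher than in the midbrain in 11 of 12 striatum and 11 of 11 PFC samples of the same mouse, by log2 fold changes of 0.39 ± 0.10 (SE; edgeR adjusted p = 0.00996) and 0.44 ± 0.10 (edgeR adjusted p = 0.00404). None of its 50-base windows recurs in an annotated transcript of another gene, and both calls held with any 1 mouse left out. Without the sample of each region with most neuronal marker RNA the striatum value was 0.33 (adjusted p = 0.0515). The striatum sample left out there was that of mouse 3, whose column name points to another region. mt-Co1 (chrM:5328-6872, plus strand), the catalytic subunit of complex IV, had medians of 949 CPM in the midbrain, 1291 in the striatum and 1279 in the PFC. Its log2 fold changes of 0.31 ± 0.11 and 0.31 ± 0.11 (SE) over the midbrain did not pass (edgeR adjusted p = 0.116 for PFC and 0.0829 for striatum). With a block for the mouse it was called in both, at 0.35 ± 0.07 in the PFC (adjusted p = 0.00136) and 0.33 ± 0.07 in the striatum (adjusted p = 0.00182). Of the 50-base windows of mt-Co1, 51.1% recur in transcripts of other genes.

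The members with copies throughout had the lowest levels of the mtDNA-encoded members and varied most. mt-Co2, mt-Co3 and mt-Atp6 each had their highest value of all 35 samples in the striatum of mouse 7, at 27.8, 82.9 and 66.3 CPM, while the next highest samples had 6.77, 40.3 and 18.7 CPM. In the same sample the copies Gm28661, Gm10925 and Gm28439 also had their highest values, 27.6, 86.3 and 8.29 CPM, while Gm28437 was highest in the midbrain of mouse 5 (256.7 CPM), Gm28438 in the striatum of mouse 4 (6.16 CPM) and Gm29216 in the striatum of mouse 3 (54.2 CPM). None of the 3 members was called between regions. Their estimates of PFC over midbrain were 0.35 ± 0.30, 0.53 ± 0.35 and 0.29 ± 0.34 (SE), the widest errors of the set. Of the 6 copies Gm28439 was called, higher in the striatum than in the midbrain by 1.53 ± 0.36 (SE; edgeR adjusted p = 0.00577) at a median of 0.523 CPM over all samples, where the second highest sample had 2.24 CPM. Its striatum level also exceeded that of the PFC, by 1.65 ± 0.38 (SE; edgeR adjusted p = 0.0299).

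Other mtDNA genes, which are not members, give the setting. mt-Nd6, the complex I subunit read from the opposite strand of mtDNA, had medians of 82.1 CPM in the midbrain, 125.7 in the striatum and 117.7 in the PFC, and was called for both, at log2 fold changes of 0.56 ± 0.11 (SE; edgeR adjusted p = 9.5e-04) and 0.47 ± 0.11 (edgeR adjusted p = 0.00506). The ribosomal RNAs of the organelle were not called: mt-Rnr1 had estimates of 0.16 ± 0.27 in the PFC and -0.08 ± 0.26 in the striatum, and mt-Rnr2 of 0.21 ± 0.23 and -0.16 ± 0.23 (SE). mt-Nd3, mt-Nd4l and mt-Atp8, at means of 2.11, 0.290 and 1.06 CPM, were not called either. Of the 50-base windows of mt-Nd3 and mt-Nd4l, 98.0% and 98.8% recur in transcripts of other genes, so their levels are uncertain. For mt-Atp8 no window recurs in an annotated transcript of another gene, but copies without annotation were not searched for. Like the other 2 it was highest in the striatum of mouse 7 (6.27 CPM, next highest sample 1.98), and its level is uncertain too.

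The order of the more abundant of these genes along mtDNA ran beside their striatum over PFC estimates. mt-Rnr1, mt-Rnr2, mt-Nd1 and mt-Nd2, the first 4 of the 9 genes with at least 50 CPM in the midbrain, had log2 fold changes of -0.24, -0.37, -0.29 and -0.21, and mt-Co1, mt-Nd4, mt-Nd5, mt-Nd6 and mt-Cytb, which follow them, had 0.01, 0.01, 0.09, 0.09 and -0.04. The SEs of mt-Rnr1 and mt-Rnr2 were wide, at 0.26 and 0.23. Among the genes left out by the cut, mt-Co2, mt-Co3 and mt-Atp6 had 0.50, 0.03 and 0.30, at uncertain levels. Without a block none of these was called (edgeR adjusted p = 0.280 for mt-Nd1, with 2 of 11 mice higher in the striatum). With a block for the mouse mt-Nd1 was lower in the striatum than in the PFC, at -0.31 ± 0.08 (SE; adjusted p = 0.0225), while limma with the mouse as a random effect called no mtDNA-encoded member in this comparison. A trend along the molecule was noticed in the values and was not tested.

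**Figure D4:**
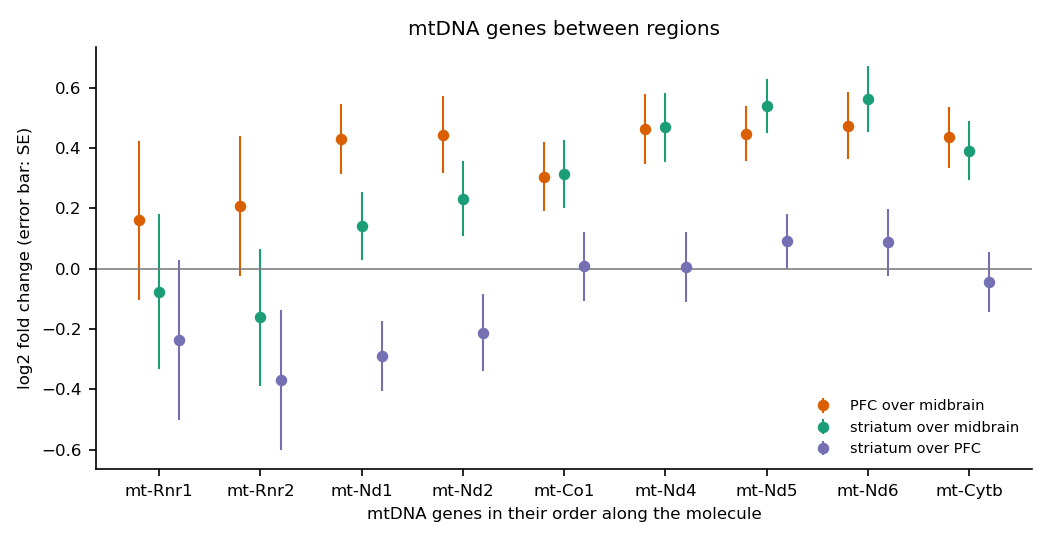
Log2 fold change with its SE for the 9 mtDNA genes with at least 50 CPM in the midbrain, placed in their order along the molecule, for PFC over midbrain (orange), striatum over midbrain (green) and striatum over PFC (violet). The violet points of the first 4 genes lie between -0.37 and -0.21 and those of the last 5 between -0.04 and 0.09.

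**Figure D5:**
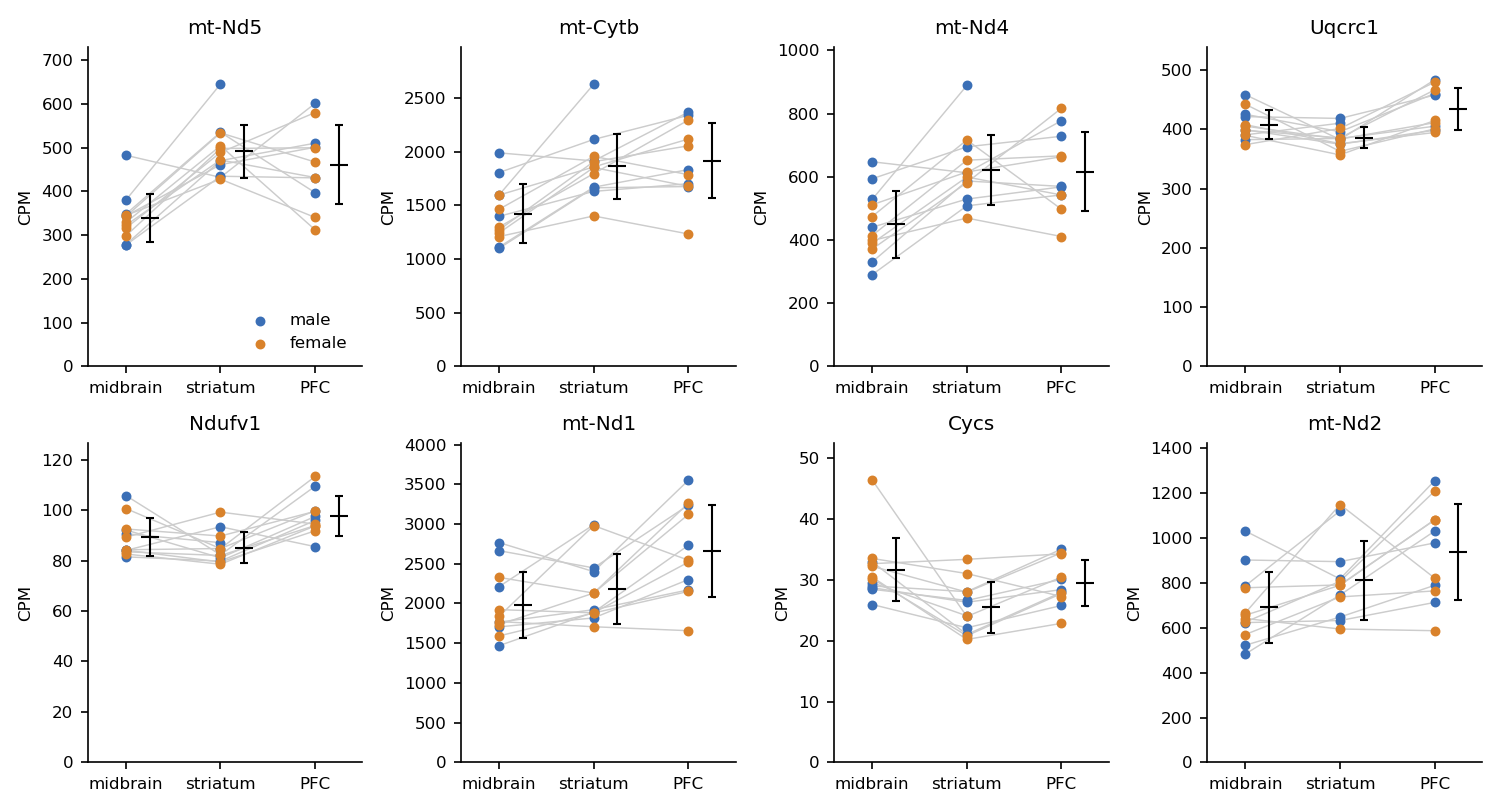
CPM in each sample by region for the 8 members called in any comparison, with males in blue, females in orange, grey lines joining samples of a mouse and black bars for mean and SD over 12, 12 and 11 samples. The mtDNA-encoded panels are lowest in the midbrain, Cycs is lowest in the striatum, with a median of 25.2 CPM, and Uqcrc1 and Ndufv1 are highest in the PFC, with medians of 415 and 95.9 CPM.

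Of the nuclear members 3 were called for the region effect, a share near the 8.89% of all genes, and their promoters are printed to show these 3 genes and not as a result about the nuclear members. RefSeq promoters (GRCm38.p6, 250 bases before to 50 after the start) were found for 25 of the 35 nuclear members, and capitals mark matches on either strand to GCGCANGCG, the core bound by NRF1, and to CCGGAAG, the core bound by GABP and other ETS factors, both known regulators of respiratory genes.
Ndufv1, chr19:4012706-4013005, minus strand: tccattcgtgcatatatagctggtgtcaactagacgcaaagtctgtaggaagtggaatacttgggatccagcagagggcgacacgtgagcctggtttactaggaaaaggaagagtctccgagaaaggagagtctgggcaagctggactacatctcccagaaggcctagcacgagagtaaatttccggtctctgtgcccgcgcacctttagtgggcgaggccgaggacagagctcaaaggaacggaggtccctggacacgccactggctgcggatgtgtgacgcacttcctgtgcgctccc
Uqcrc1, chr9:108936398-108936697, plus strand: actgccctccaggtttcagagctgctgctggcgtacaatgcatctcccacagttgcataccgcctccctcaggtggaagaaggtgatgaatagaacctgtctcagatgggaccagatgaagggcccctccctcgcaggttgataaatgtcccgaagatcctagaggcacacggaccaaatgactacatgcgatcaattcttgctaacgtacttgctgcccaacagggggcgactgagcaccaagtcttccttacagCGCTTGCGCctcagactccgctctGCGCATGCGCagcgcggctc
Cycs, chr6:50566520-50566819, minus strand: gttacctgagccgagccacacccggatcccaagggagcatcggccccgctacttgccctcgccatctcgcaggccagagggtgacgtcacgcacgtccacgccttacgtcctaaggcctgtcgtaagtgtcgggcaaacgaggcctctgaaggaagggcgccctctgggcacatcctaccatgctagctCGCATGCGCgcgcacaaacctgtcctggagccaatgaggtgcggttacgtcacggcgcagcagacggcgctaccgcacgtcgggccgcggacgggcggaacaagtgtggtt
The NRF1 core stood in the Cycs promoter once, 61 bases before the start, and in the Uqcrc1 promoter 3 times, of which 2 matches overlap, and neither core stood in these 300 bases of Ndufv1. Over the 25 promoters, 7 held the NRF1 core (28%; Ndufa5, Ndufa8, Ndufb10, Sdha, Sdhd, Uqcrc1 and Cycs), against 6.25% of all 32851 promoters, and 5 held the ETS core (20%; Ndufs3, Ndufs8, Sdhb, Sdhd and Cox8a), against 8.86% of all. Matches of letters are a description and not evidence of binding.

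Cycs (chr6:50562563-50566538, minus strand) had 25.9 (lowest), 30.3 (median) and 46.4 CPM (highest) in the midbrain, 20.2 (lowest), 25.2 (median) and 33.4 CPM (highest) in the striatum and 22.8 (lowest), 28.4 (median) and 35.04 CPM (highest) in the PFC. The striatum was the lowest region, with a value above the midbrain in 1 of 12 mice, and the ranges overlapped. Its log2 fold change of striatum over midbrain was -0.31 ± 0.09 (SE; edgeR adjusted p = 0.0194), opposite in sign to that of the mtDNA-encoded members. The highest midbrain sample, of mouse 12, lay far from the others, and without mouse 12 the value was -0.25 (adjusted p = 0.0714), without mouse 11 it was -0.28 (adjusted p = 0.0615). Of its 50-base windows 28.5% recur in transcripts of other genes. Uqcrc1 (chr9:108936633-108949623, plus strand), a core protein of complex III, had 374 to 458 CPM in the midbrain (median 402), 357 to 418 in the striatum (median 384) and 395 to 484 in the PFC (median 415). The ranges overlapped, and in 0 of 11 mice was the striatum higher than the PFC. It was the single member called for striatum over PFC, at -0.17 ± 0.04 (SE; edgeR adjusted p = 0.0471), in a comparison in which 0.57% of all genes were called, 0.391% higher and 0.179% lower. That call was lost without any 1 of 11 of the 12 mice, mouse 3 being the exception (adjusted p up to 0.129). Ndufv1 (chr19:4007384-4012806, minus strand), the subunit of complex I that binds NADH, had 81.5 to 106 CPM in the midbrain (median 86.8), 78.5 to 99.2 in the striatum (median 83.5) and 85.5 to 113 in the PFC (median 95.9). The ranges overlapped, but the PFC value exceeded the midbrain value in 11 of 11 mice, at 0.13 ± 0.05 (SE; edgeR adjusted p = 0.148). With a block for the mouse it was called for striatum over PFC, at -0.20 ± 0.04 (adjusted p = 0.0127), so that this comparison held 3 members, mt-Nd1, Ndufv1 and Uqcrc1, in place of 1. Over all genes the calls of this comparison rose from 121 to 614 with the block.

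The remaining 32 nuclear members were called in no comparison between regions. For PFC over midbrain, 12 of the 17 nuclear subunits of complex I had a positive estimate, and the median of the 17 was 0.03. Apart from Ndufv1 the 17 were Ndufa1, Ndufa2, Ndufa5, Ndufa8, Ndufa9, Ndufa10, Ndufb3, Ndufb5, Ndufb8, Ndufb9, Ndufb10, Ndufs1, Ndufs3, Ndufs7, Ndufs8 and Ndufv2, whose estimates lay between -0.06 for Ndufs3 and 0.12 for Ndufb9. All 4 members of complex II, Sdha, Sdhb, Sdhc and Sdhd, had positive estimates, from 0.06 to 0.12, and their summed CPM in the PFC exceeded that of the midbrain within 11 of 11 mice (715 ± 47.6 in the PFC, SD, n = 11, against 675 ± 37.6 in the midbrain, n = 12). In complex III, Uqcrc2, Uqcrfs1, Uqcrb, Uqcrq and Cyc1 lay from -0.06 to 0.01, and in complex IV, Ndufa4, Cox4i1, Cox5a, Cox5b, Cox6c, Cox7c and Cox8a lay from -0.01 to 0.10. For striatum over midbrain 11 of 17, 2 of 4, 5 of 6 and 7 of 7 estimates were negative in complexes I, II, III and IV, and the summed CPM of complex II was higher in the striatum in 8 of 12 mice. Over all 35 nuclear members 9 estimates were positive, against 14 without mouse 5, 5 without mouse 6 and 22 in mice 7 to 12 alone, so no direction is given for them. Coefficients of variation within a region had medians of 12.8% to 17.5% for nuclear and 17.4% to 22.0% for the 6 mtDNA-encoded members without copies throughout (n = 12, 12 and 11 samples). The SE of PFC over midbrain was at most 0.14 for a nuclear member.

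Samples that ranked high differed between the groups of genes. PFC of mouse 5 held the highest value of 16 of the 35 nuclear members and midbrain of mouse 5 that of 9 more, whereas striatum of mouse 3 and PFC of mouse 1 held the highest values of 6 mtDNA-encoded members. Mice numbered 1 to 6 had higher sums than mice 7 to 12 in each region. For the mtDNA-encoded sum the midbrain means were 6872 ± 1162 CPM (SD, n = 6) and 5055 ± 387 (n = 6), and for the nuclear sum 4196 ± 336 (n = 6) and 3456 ± 262 (n = 6). The log2 ratio was less far apart, at 0.70 ± 0.20 and 0.55 ± 0.08 in the midbrain, 1.05 ± 0.22 and 0.88 ± 0.13 in the striatum and 1.03 ± 0.21 (n = 5) and 0.95 ± 0.19 in the PFC (SD, n = 6 otherwise). Both sets of mice had the midbrain lowest. The labels name nothing that separates these mice.

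Other cell types were looked for with marker lists. Of 14 neuronal markers analysed (Slc17a6, Drd1 and Drd2 were not analysed here) Rbfox3, Snap25, Stmn2, Slc17a7, Camk2a, Nrgn and Map2 were called higher than in the midbrain in both PFC and striatum, and Th was lower in the striatum. The sum of the 14 was 5.80 to 11.4 CPM in the midbrain, 11.6 to 25.8 in the striatum and 17.1 to 48.1 in the PFC, so that the midbrain range lay below both others. Of 10 astrocyte markers Slc1a2 and Slc1a3 were called higher in both regions and Aldoc in the striatum, with sums of 215 to 283 CPM in the midbrain, 263 to 454 in the striatum and 263 to 512 in the PFC. Of 10 oligodendrocyte markers Mbp and Ermn were called for the region effect. Between pairs of regions only Mbp was called, lower in the PFC than in the midbrain. The 10 summed to 306 to 516, 301 to 866 and 232 to 534 CPM in midbrain, striatum and PFC. No endothelial marker of 9 was called. Of 10 markers of border macrophages and blood (Lyve1 was not analysed here), Ccr2 was higher in both regions and Ly6c2 was lower in the striatum. The counts table held only genes that had passed the study's filter for expression, so no marker in it could be at 0 in every sample. None was at 0 in every midbrain sample. Within mice the mean difference of PFC and midbrain was 17.6 CPM for the neuronal, 109 CPM for the astrocyte and -63.9 CPM for the oligodendrocyte sum. For the mtDNA-encoded sum it was 2029 CPM. A sum of a few markers is not the amount of RNA from a cell type, so the sizes of these differences cannot be compared. With the level of other brain cell markers (neurons, astrocytes, oligodendrocytes and endothelium) as a covariate, 5 mtDNA-encoded members were called for PFC over midbrain and 4 for striatum over midbrain (5 and 3 without mt-Co2, mt-Co3 and mt-Atp6), and no nuclear member was called in any comparison, so that Cycs, at -0.19 (adjusted p = 0.317), and Uqcrc1, at -0.14 (adjusted p = 0.292), lost their calls. In that fit 1522 of all genes were called for PFC over midbrain and 701 for striatum over midbrain. Homeostatic microglia markers also moved, with 4 of 14 higher in the PFC (P2ry12, Sall1, Fcrls and Siglech) and 5 in the striatum (P2ry13, Csf1r, Sall1, Fcrls and Siglech), and sums of 50773 to 58530.0 CPM in the midbrain, 54229 to 64341 in the striatum and 52921 to 61500.3 in the PFC. None of 12 genes of the dissociation response was called by edgeR, and Neat1, a nuclear-retained RNA, was higher in the striatum. The part of these cell types in the mtDNA result was not tested further.

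Genes around the chain were described from fixed lists. Of 27 further nuclear subunits of complexes I, III and IV none was called by edgeR in any comparison of regions, with medians of 0.03 for PFC over midbrain and -0.07 for striatum over midbrain, and the same held for 16 ATP synthase genes (medians of -0.02 and -0.11). Among 40 assembly factors 2 were called for striatum over midbrain, beside 7.45% of all genes. Sdhaf1, which helps to mature complex II, exceeded its midbrain level by 0.34 ± 0.10 (SE; edgeR adjusted p = 0.0311) and Coa5, of complex IV assembly, lower, at -0.22 ± 0.06 (edgeR adjusted p = 0.0118). Of 31 genes of mtDNA expression and mitochondrial biogenesis, 2 were called in the PFC over the midbrain, a share near the 6.52% of all genes. Lrpprc, which stabilizes mtDNA-encoded messenger RNAs, was higher by 0.22 ± 0.07 (SE; edgeR adjusted p = 0.0430), and Ppargc1b, a coactivator of mitochondrial biogenesis at a mean of 1.01 CPM, was lower, at -1.24 ± 0.35 (edgeR adjusted p = 0.0241). No gene of that list was called between striatum and midbrain.

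The pathways that feed the chain had calls in both directions. In the tricarboxylic acid cycle 3 of 18 genes were called for the region effect, beside 8.89% of all genes. Idh2, which makes NADPH in mitochondria, was higher than in the midbrain by 0.34 ± 0.05 (SE) in the PFC (edgeR adjusted p = 7.8e-06) and by 0.22 ± 0.05 in the striatum (edgeR adjusted p = 0.00265). Dld and Pdha1, subunits of the pyruvate dehydrogenase complex, were lower in the striatum, at -0.20 ± 0.05 (edgeR adjusted p = 0.0125) and -0.20 ± 0.06 (edgeR adjusted p = 0.0389). In glycolysis 3 of 18 genes were called in each comparison with the midbrain, beside 6.52% of all genes for the PFC and 7.45% for the striatum. Pfkl, of the committed step, was higher in the PFC by 0.28 ± 0.08 (SE; edgeR adjusted p = 0.0349) and in the striatum by 0.31 ± 0.08 (edgeR adjusted p = 0.0154), and Aldoa was higher in the PFC by 0.19 ± 0.04 (edgeR adjusted p = 0.00228). Aldoc, also an astrocyte marker, was higher in the striatum by 0.91 ± 0.25 (edgeR adjusted p = 0.0188). Eno1 was lower in the PFC, at -0.16 ± 0.05 (edgeR adjusted p = 0.0448), and Ldha, lactate dehydrogenase A, lower in the striatum, at -0.22 ± 0.07 (edgeR adjusted p = 0.0347).

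Between the sexes none of the 44 members was called by edgeR, where 0.339% of all genes were, and none by DESeq2 or by limma with the mouse as a random effect, while 2 members had an unadjusted p under 0.05 in edgeR. All 9 mtDNA-encoded members had lower estimates in females, with a median log2 fold change of -0.12, and 28 of the 35 nuclear members had higher ones, with a median of 0.04. Neither pattern held in every subset. Of the nuclear members 15 were higher in females without mouse 7 (median -0.01), 17 without mouse 6 and 17 in mice 1 to 6 alone. Of the mtDNA-encoded members 4 were higher in females in mice 7 to 12 alone (median -0.01), 1 in mice 1 to 6 alone and 1 without mouse 1 (median -0.05). The 3 lowest p-values belonged to mt-Atp6, at -0.58 (edgeR p = 0.0436, adjusted p = 0.604), mt-Co2, at -0.50 (edgeR p = 0.0471, adjusted p = 0.613), and Cycs, at 0.11 (edgeR p = 0.126, adjusted p = 0.780). For mt-Atp6 the means were 11.9 ± 14.5 CPM (SD, n = 17) in males and 7.49 ± 2.53 (n = 18) in females, and without the striatum sample of mouse 7, a male, the male mean was 8.48 ± 3.69 (n = 16). mt-Co2 moved in the same way, from 5.54 ± 5.89 (SD, n = 17) to 4.14 ± 1.39 (n = 16) in males, beside 3.71 ± 1.39 (n = 18) in females. The log2 ratio of the sums, female minus male, was -0.12 (a difference of means), within the pooled SD of 0.18. For the interaction of region and sex edgeR called none of the members and 0% of all genes, with no member and 632 of all genes at an unadjusted p under 0.05, and DESeq2 and limma called 1 gene each, which was no member.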

How the data were processed

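Microglia were sorted as tdTomato-positive cells from 3 brain regions of 12 mice, and cDNA (SMART-Seq HT) was made into Nextera XT libraries and sequenced as paired reads of 50 bases. The authors deposited raw counts of the 21236 genes left by their filter, which kept genes with at least 1 CPM in a subgroup of sex and region. Shares of all genes are shares of these. Their processing notes name FastQC, Trimmomatic and HISAT2. The counting tool and its handling of reads with several places are not given in the sources used here. Gene symbols and positions came from GENCODE M21 on GRCm38, and 133 of 21236 genes had no symbol. All columns were mapped to samples, 1 of them by its label where its name pointed to another region.

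Counts were tested as deposited with edgeR 4.0.16 in R 4.3.3 (TMM factors, robust quasi-likelihood F-test, terms for region and sex, and an interaction), with Benjamini-Hochberg adjustment over all 21236 genes and an adjusted p under 0.05 as the call. Sex was compared over samples of which each mouse gave up to 3, so its p-values treat samples of one mouse as separate. CPM used TMM library sizes. Alternatives were other scalings, a filter, a block or random effect for the mouse, covariates, DESeq2 1.42.0, limma 3.58.1, subsets of mice, and each mouse left out. The script was tested on simulated data. The mouse number pairs regions because the samples come from the same animal. Deviations from the group means had a mean correlation of 0.225 over 34 pairs of samples of one mouse and -0.04 over 170 other pairs, and no libraries were duplicates.

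The members and lists were chosen with earlier results of these data known. Full values were given for members called for region, in each pathway list for called genes, and, as none was called for sex, for the 3 with the lowest p.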

Additional observations from a re-analysis of the deposited data

Results flagged for a closer look

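In groups of 1 region and sex, a sample was picked out where its gap to the nearest other sample, divided by the range of the group, passed Dixon's 95% value. Chance alone marks about 1 in 20 groups, and 5 of 66 were marked. In female striatum, mouse 8 had a log2 ratio of mtDNA-encoded to nuclear members of 0.65, below the 0.89 to 0.98 of the other samples, and a mt-Cytb of 1402 CPM, below 1796 to 1957 CPM. Mouse 6 had a mt-Nd1 of 2980.2 CPM in that group, above 1707 to 2131 CPM. In female PFC, mouse 2 had an Ndufv1 of 113 CPM, above 91.8 to 99.5 CPM. In female midbrain, mouse 12 had a Cycs of 46.4 CPM, above 30.2 to 33.5 CPM. The causes were not tested.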

How the results depend on the processing

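None of the called estimates of members reversed under an alternative run. Uncalled ones did, among them, with the replicate block, mt-Nd4 (-0.02), mt-Co1 (-0.02), mt-Co3 (-0.16) and mt-Atp6 (-0.05) for striatum over PFC. The differences of the log2 ratio moved by less than the pooled SD between samples, 0.18, which is a wide margin for a difference of means. With 1 mouse left out they ran from 0.33 to 0.39 for PFC minus midbrain and from 0.31 to 0.38 for striatum minus midbrain. Female minus male ran from -0.16 to -0.09, and striatum minus PFC lay on both sides of 0. Members called for region were 7, against 3 in mice 1 to 6 alone, 3 to 7 with 1 mouse left out, and 9 with the replicate block, limma or the covariate for mice 1 to 6. For PFC over midbrain they were 2 in mice 1 to 6 alone and 3 to 5 with 1 mouse left out, and for striatum over midbrain 1 in mice 1 to 6 alone and 2 without the sample of each region with most neuronal marker RNA, an alternative chosen after seeing the data. For striatum over PFC the 1 member became 0 with DESeq2 size factors, library totals, nuclear scaling, the marker covariate, either set of mice alone, or without the most neuronal samples, 3 with the mouse as a block or a covariate for mice 1 to 6, 2 with limma, 2 with DESeq2, and 0 to 1 with 1 mouse left out. For sex 2 members passed the study's rule of an unadjusted p under 0.05 and a fold above 1.2. Over all genes, region calls were 2977 with the replicate block, 2972 with limma, 512 in mice 1 to 6 and 1183 in mice 7 to 12, against 1888. PFC over midbrain gave 386 and 921 genes in these sets of mice, against 1385. Striatum over midbrain gave 2476 with the block, 2524 with limma, 701 with the marker covariate and 216 in mice 1 to 6, against 1583. Striatum over PFC gave 614 with the block, 482 with the covariate for mice, 52 with the marker covariate, 556 with limma, 342 with DESeq2, 37 and 11 in the sets of mice, 667 by the study's rule and 38 to 126 with 1 mouse left out, against 121. Sex gave 118 with the covariate for mice, 9 with counts summed per mouse, 23 with limma, 194 with DESeq2, 5 and 41 in the sets of mice, 33 without the most neuronal samples, 878 by the study's rule and 25 to 120 with 1 mouse left out, against 72. The interaction gave 1 gene with limma and 1 with DESeq2. Sets of mice hold fewer samples; the other causes were not tested. Reads shared with copies limit mt-Co2, mt-Co3 and mt-Atp6, and in part mt-Nd4 and mt-Co1.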
